A study of Mus musculus with 15 samples.

Results

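The comparison set ILC3 libraries against ILC2 libraries from mouse small intestine. Group 3 and group 2 innate lymphoid cells (ILC3 and ILC2) are lymphocytes without rearranged antigen receptors. All 8 libraries labelled ILC3 and all 7 labelled ILC2 entered, which is every one of the 15 libraries of the study. Both cell types came from female mice and were taken at zeitgeber times 4, 10, 16 and 23 (ZT, in hours from the daily time cue), with 2 libraries per cell type and time except ILC2 at ZT16, which had 1. Neither a treatment nor a mutation was named, and the sources used here gave neither strain nor age. At each time intestines of 6 mice were digested and pooled before staining and sorting by flow cytometry, with antibodies and gates that the sources used here did not name. The labels put every ILC3 library in batch 2 and every ILC2 library in batch 1, so cell type and batch cannot be told apart in any value that follows. Whether the paired libraries of a time came from separate pools was not stated, so p-values measure the spread between these libraries, which may be technical. Counts came from bulk RNA, in which fewer cells of a type and less RNA per cell cannot be told apart.

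ILC2 are known for answering alarm signals from epithelium and nerves with type 2 cytokines, under the transcription factor GATA3. ILC3 answer interleukin-23 and interleukin-1 with interleukin-22, which acts on the gut epithelium. Lacking antigen receptors, both take their cues through receptors for cytokines, lipids, neural signals and metabolites.

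The labels were checked against 5 marker genes. Windows of 300 bases that span an annotated start of each are shown here because these genes carry the contrast between the lineages (RefSeq, GRCm38.p6, each read 5′ to 3′ on the gene's own strand). The Il22, Il1rl1 and Gata3 windows lie inside the gene spans given further on, so their starts are not the outermost ones. They are Il23r (chr6:67491806-67492105, minus strand), Il22 (chr10:118204714-118205013, plus strand), Il5 (chr11:53720544-53720843, plus strand), Il1rl1 (chr1:40429320-40429619, plus strand, the first listed of 2 windows) and Gata3 (chr2:9878551-9878850, minus strand). Capitals mark AGGTCA, a core that nuclear receptors read, or AGATAA, which factors of the family of Gata3 read, on either strand, so that TGACCT marks the nuclear receptor core on the opposite strand.
Il23r: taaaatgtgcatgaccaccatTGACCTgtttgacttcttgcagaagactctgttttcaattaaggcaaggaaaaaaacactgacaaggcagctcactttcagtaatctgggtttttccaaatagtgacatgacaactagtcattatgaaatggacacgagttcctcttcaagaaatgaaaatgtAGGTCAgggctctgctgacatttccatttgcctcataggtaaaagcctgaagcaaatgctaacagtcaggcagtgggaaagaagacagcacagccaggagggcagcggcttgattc
Il22: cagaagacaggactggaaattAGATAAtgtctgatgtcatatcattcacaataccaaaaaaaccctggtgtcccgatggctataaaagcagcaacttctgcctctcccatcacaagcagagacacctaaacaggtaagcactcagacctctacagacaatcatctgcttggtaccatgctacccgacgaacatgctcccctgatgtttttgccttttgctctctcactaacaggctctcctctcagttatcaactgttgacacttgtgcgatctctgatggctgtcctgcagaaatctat
Il5: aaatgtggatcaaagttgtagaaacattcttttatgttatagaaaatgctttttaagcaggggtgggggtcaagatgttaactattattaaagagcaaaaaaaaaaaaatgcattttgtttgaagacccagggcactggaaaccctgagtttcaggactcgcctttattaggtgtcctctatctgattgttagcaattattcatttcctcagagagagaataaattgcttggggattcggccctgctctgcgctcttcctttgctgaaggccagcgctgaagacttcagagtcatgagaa
Il1rl1: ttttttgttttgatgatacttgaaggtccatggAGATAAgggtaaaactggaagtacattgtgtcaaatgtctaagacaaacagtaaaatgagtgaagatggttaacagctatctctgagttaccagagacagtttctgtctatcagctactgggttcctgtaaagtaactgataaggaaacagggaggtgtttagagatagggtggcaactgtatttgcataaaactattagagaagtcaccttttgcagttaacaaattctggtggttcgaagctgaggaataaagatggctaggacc
Gata3: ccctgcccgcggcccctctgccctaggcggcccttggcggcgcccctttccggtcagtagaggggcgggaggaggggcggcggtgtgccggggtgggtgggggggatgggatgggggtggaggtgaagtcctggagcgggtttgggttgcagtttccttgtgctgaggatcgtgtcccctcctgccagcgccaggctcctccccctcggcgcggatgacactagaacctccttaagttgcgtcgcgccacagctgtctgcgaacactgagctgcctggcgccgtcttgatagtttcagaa

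Distances were counted from the start on which each window was built. Il23r held AGGTCA at 229 bases upstream on the opposite strand and at 66 bases upstream as read. Il22 held AGATAA 229 bases upstream and Il1rl1 held it 217 bases upstream, and neither stood in the Il5 and Gata3 windows. Such matches are descriptions of letters. AGGTCA stood in 14.3% of windows of genes called higher in ILC3 and in 11.2% of windows of genes called higher in ILC2, beside 13.1% of the 15225 windows of all genes tested. AGATAA stood in 7.08%, 8.04% and 7.21% of the same sets.

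The markers separated the libraries along their labels at every time. Levels are given as CPM (counts scaled to 1000000 per library, with TMM factors), by the lowest, highest and median of 8 ILC3 or 7 ILC2 libraries. Fold changes are fitted log2 values, ILC3 minus ILC2 with equal weight per time, ± their standard error, with p-values from edgeR's quasi-likelihood test adjusted by Benjamini-Hochberg over all genes tested. Il23r (Entrez 209590, chr6:67422932-67491855), the receptor chain for interleukin-23, spanned 64.7 to 163 CPM in ILC3 (median 94.6), against 0.6801 to 7.63 CPM in ILC2 (median 3.08) (log2 fold change 5.10 ± 0.37, adjusted p = 2.06e-06). Il22 (Entrez 50929, chr10:118204584-118210047), the cytokine that ILC3 are best known for, spanned 313 to 1583 CPM in ILC3 (median 504), against 1.06 to 21.9 CPM in ILC2 (median 12.5) (log2 fold change 5.66 ± 0.65, adjusted p = 4.80e-05). No ILC2 library reached any ILC3 library for either gene. The highest Il22 value was that of ILC3 ZT4 replicate 1, and without that library the log2 fold change was 5.31. Il22 has a near copy in this genome, Iltifb, whose transcript matched that of Il22 at 97.3% of bases over 1110 bases with an identical run of 215 bases, so reads may have been split between them. Iltifb itself had medians of 97.3 CPM in ILC3 and 3.62 CPM in ILC2 (log2 fold change 5.33 ± 0.50, adjusted p = 1.09e-05).

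On the other side stood the ILC2 markers. Gata3 (Entrez 14462, chr2:9857078-9887953) spanned 15.1 to 53.01 CPM in ILC3 (median 37.1), against 302 to 665 CPM in ILC2 (median 527) (log2 fold change -3.85 ± 0.25, adjusted p = 1.03e-06). Il1rl1 (Entrez 17082, chr1:40404864-40465418), which encodes the receptor for the alarmin interleukin-33, spanned 5.74 to 15.5 CPM in ILC3 (median 10.1), against 86.3 to 161 CPM in ILC2 (median 109) (log2 fold change -3.41 ± 0.20, adjusted p = 5.08e-07). Il5 (Entrez 16191, chr11:53720794-53725103), the eosinophil growth cytokine, spanned 0.0624 to 4.09 CPM in ILC3 (median 0.658), against 39.8 to 118 CPM in ILC2 (median 59.2) (log2 fold change -6.36 ± 0.48, adjusted p = 2.39e-06). Again no library of one type overlapped the other, although Gata3 and Il1rl1 transcripts were present in every ILC3 library. Taken time by time from the same fit, the log2 difference of Il5 lay between -7.46 and -5.50 and that of Il23r between 4.14 and 6.85. At ZT16 such differences rest on 1 ILC2 library.

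Total counts ran between 5903163 and 24794403 in ILC3 libraries, against 4016298 to 18538315 in ILC2 libraries. Transcripts known from other cells moved with cell type. The 18 plasma and B cell genes summed to between 474.1 and 4441 CPM in ILC3 (median 1484), against 19147 to 193412 CPM in ILC2 (median 70601), and of the 18 genes 0 were called higher in ILC3 and 12 higher in ILC2 at an adjusted p under 0.05. Over all genes tested 15.1% were called with more in ILC3 and 12% with more in ILC2, and the counts of the following lists stand beside these shares. Jchain, which joins secreted antibody units, made up most of that sum, with medians of 1250 CPM in ILC3 and 68665 CPM in ILC2. The 12 plasmacytoid dendritic cell genes summed to 335.4 to 545.2 CPM in ILC3 and 1850 to 4454 CPM in ILC2, with 11 called higher in ILC2. The mast cell and basophil genes summed to 1646 to 3883 CPM in ILC3 (median 2174) and 157.4 to 649 CPM in ILC2 (median 255). Of the 15 genes of this list 13 passed the filter and were called higher in ILC3. Kit, which is also a receptor of ILC3, was on the list, with medians of 815.1 CPM in ILC3 and 169.5 CPM in ILC2. Prss34 was at 0 in both cell types, and Cma1 and Tpsab1 were at 0 in ILC2. The 17 macrophage and dendritic cell genes summed to 2186 to 5436 CPM in ILC3 and 613.3 to 2943 CPM in ILC2, with 9 called higher in ILC3. The 14 cytotoxic lymphocyte genes summed to 1013 to 6538 CPM in ILC3 and 401.9 to 1159 CPM in ILC2, with 7 called higher in ILC3 and 3 higher in ILC2. The part of such cells in the results was not tested.

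**Figure D1:**
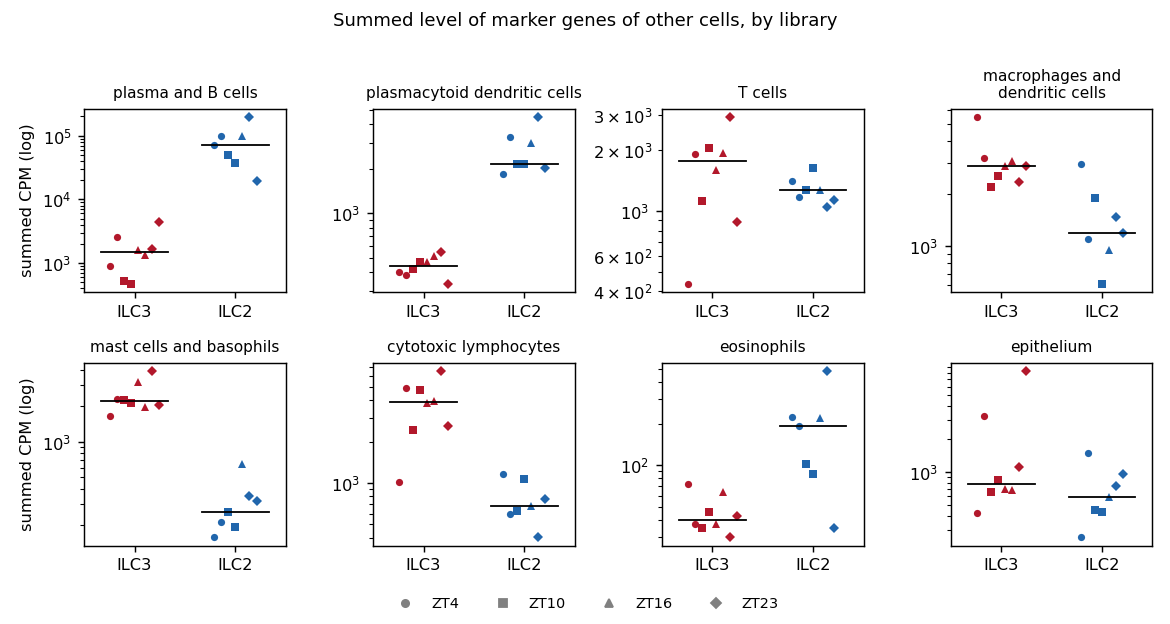
Summed CPM of marker genes of 8 other cell types (y, log scale, scales differ between panels) in 8 ILC3 libraries (left, red) and 7 ILC2 libraries (right, blue), with marker shape for the time of day and a line at the median. Plasma and plasmacytoid dendritic cell sums of the cell types do not overlap and are higher in ILC2, mast cell and basophil sums are higher in ILC3, and ILC3 ZT23 replicate 2 reaches 8294 CPM of epithelial genes.

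Some libraries stood apart. The plasma and B cell sum was highest in ILC2 ZT23 replicate 1 and lowest of the ILC2 libraries in ILC2 ZT23 replicate 2. ILC3 ZT4 replicate 1, the shallowest ILC3 library, had the highest macrophage and dendritic cell sum and the lowest T cell sum. ILC3 ZT23 replicate 2 had 8294 CPM of epithelial genes against a median of 778.1 CPM over ILC3 libraries and 590.9 CPM over ILC2 libraries. Calls for ILC3 and for ILC2 numbered 2155 and 1714 without ILC2 ZT23 replicate 1, 2254 and 1821 without ILC2 ZT23 replicate 2, 2241 and 1759 without ILC3 ZT4 replicate 1, and 2150 and 1722 without ILC3 ZT23 replicate 2.

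Across the genome, 2318 genes had more transcript in ILC3 and 1839 more in ILC2 at an adjusted p under 0.05, which is 15.1% and 12% of the 15339 genes tested and 27.1% together. Of the calls 55.8% were thus higher in ILC3. Scaled by library size alone, the numbers were 2981 and 1315, or 69.4% higher in ILC3, and the median log2 fold change of all genes moved to 0.26, against 0.11 with TMM factors. The fitted difference had the same direction at all 4 times in 3986 of the 4157 called genes (95.9%). A total of 301 genes tested had no count in any ILC2 library, against 46 with no count in any ILC3 library. The fit averages log levels over the times, and its fold changes depend on the prior count of the model where a cell type had few counts. Ratios of counts are given for named genes with up to 14 counts in one cell type. They set the pooled counts of each cell type over its summed TMM-scaled library sizes. Deep libraries therefore weigh more in them, and times are not weighted equally. For other genes whose fitted fold differed by over 1.5 times from the plain ratio of mean CPM, the log2 of that ratio stands beside it. A stricter set of criteria then asked, beside an adjusted p under 0.05, for a fitted log2 difference of 1 or more in size, 10 CPM or more on average in the cell type with more, and libraries of the types that did not overlap. These criteria held for 559 genes with more in ILC3 (3.64%) and 481 with more in ILC2 (3.14%), or 6.78% together. Of these, 444 belonged to the 6 classes described here. The leading genes of each class were named from among them, so lack of overlap in those genes was a condition of the choice. Among all 4157 called genes, 1841 had no overlap between libraries of the types.

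**Figure D2:**
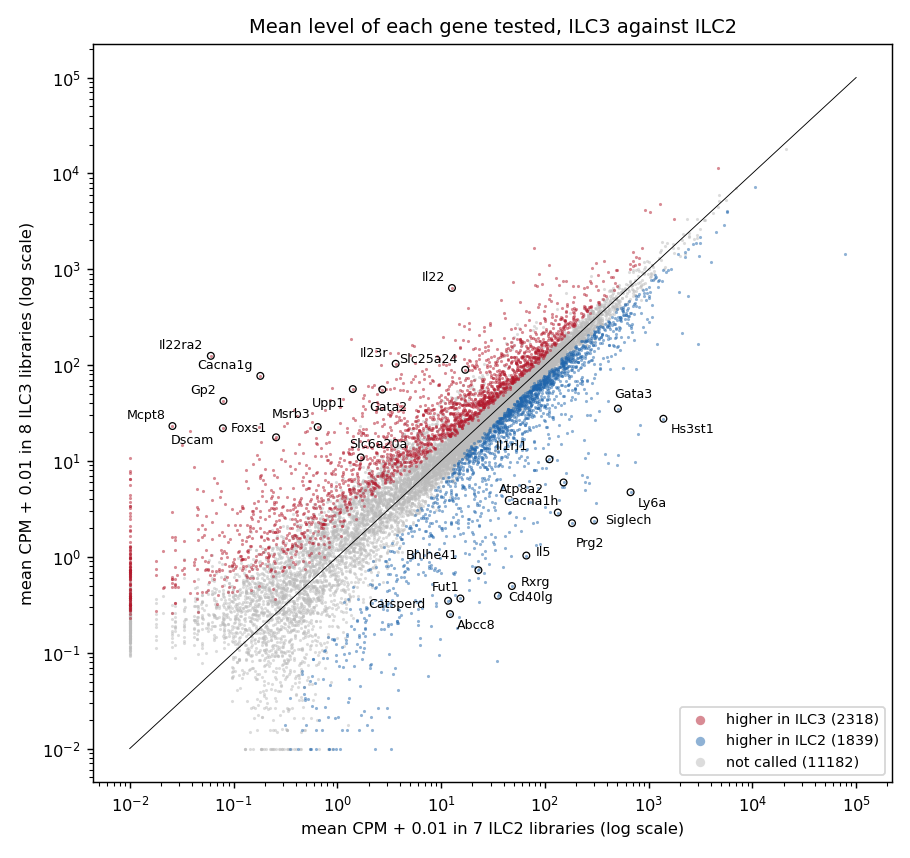
Mean CPM plus 0.01 of each of 15339 genes tested in 8 ILC3 libraries (y) and 7 ILC2 libraries (x), both on log scales, with genes called higher in ILC3 in red, higher in ILC2 in blue and the rest in grey. Circles mark the markers and up to 2 leading genes of each class and direction; Il22ra2, Cacna1g and Gp2 lie far left at almost no level in ILC2, and Hs3st1, Ly6a and Siglech lie far right.

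The 6 classes differed in how large a share was called. Surface receptors and adhesion molecules had 236 calls for ILC3 and 139 for ILC2 among 779 tested of 1046 in the files, or 48.1% called, next to 27.1% of all genes. Secreted proteins had 124 and 61 among 486 tested of 820 (38.1%). Channels had 43 and 34 among 215 tested of 374 (35.8%), metabolic enzymes 194 and 143 among 1055 tested of 1268 (31.9%), and transporters 66 and 64 among 417 tested of 529 (31.2%). Transcription factors had 116 and 109 among 900 tested of 1137 (25%), a share near that of all genes. The 116 was 75 without ILC2 ZT10 replicate 2, 67 without ILC3 ZT10 replicate 1, 70 without ILC3 ZT16 replicate 1 and 69 without ILC3 ZT16 replicate 2, and the 109 was 71 with library size as the only scaling. Median log2 fold changes were 1.02 for secreted proteins, 0.79 for receptors, 0.39 for channels, 0.25 for enzymes, 0.21 for transporters and 0.04 for transcription factors, beside 0.11 for all genes. With genes at 0 counts set to their bound the medians were the same to 2 decimals, and such genes lie far from the median. A gene expressed in one cell type alone could pass the filter on low counts through that type, so shares and medians over the genes tested describe the classes and support no difference between them.

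**Figure D3:**
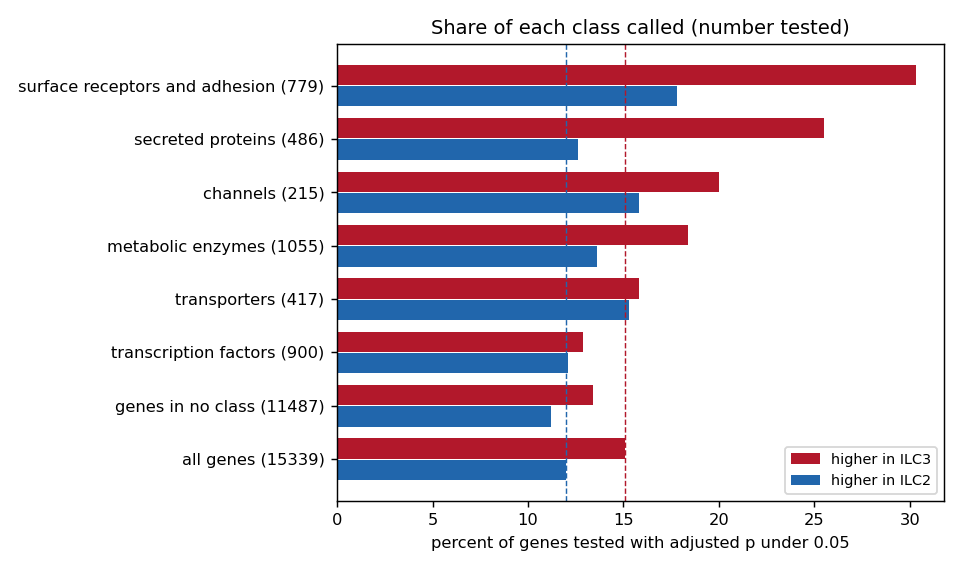
Percent of tested genes called higher in ILC3 (red, upper bar) and higher in ILC2 (blue, lower bar) in each class, with the number tested in brackets and dashed lines at the shares of all genes. Receptors and secreted proteins reach 30.3% and 25.5% higher in ILC3, against 17.8% and 12.6% higher in ILC2.

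Among transcription factors the most abundant ones were shared. Per length, as TPM (transcripts scaled to 1000000 per library) computed from the counts and the deposited gene lengths, the highest median level in ILC3 was that of Junb, an AP-1 subunit. It had 6646 TPM in ILC3 and 5392 TPM in ILC2. Fosb, Fos, Nr4a1 and Jun, which are genes induced early after stimulation, and Jund, Bhlhe40 and Id2 were also among the 10 highest in both cell types. Id2, which all innate lymphoid cells need, had medians of 820.7 TPM in ILC3 and 675.6 TPM in ILC2 and was not called (log2 fold change 0.13 ± 0.19, adjusted p = 0.672). Of the 10 highest in ILC3, Atf3, a stress-induced factor, was the one called higher in ILC3 (652.2 TPM in ILC3, 219.9 TPM in ILC2, log2 fold change 1.46 ± 0.15). Xbp1, which drives the secretory apparatus, had 226.4 TPM in ILC3 and 2265 TPM in ILC2, where it was the fourth highest. Its log2 fold change was -3.30 ± 0.33, and it is also a factor of plasma cells, whose genes were higher in the ILC2 libraries. Fosb was called higher in ILC2 by a small margin (log2 fold change -0.52 ± 0.17, adjusted p = 0.0406).

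Factors with the largest folds above ILC2 in ILC3 included Foxs1, Gata2, Zfp366 and Batf3. Foxs1 (Entrez 14239, chr2:152931898-152933208), a forkhead factor, spanned 12.6 to 24.2 CPM in ILC3 (median 17.7), against 0 to 1.11 CPM in ILC2 (median 0) (log2 fold change 8.19 ± 0.68, adjusted p = 7.81e-06; log2 ratio of mean CPM 6.16), and the median ILC2 library had no count. Gata2 (Entrez 14461, chr6:88193891-88207032), a factor of mast cells, basophils and blood progenitors, spanned 28.1 to 80.6 CPM in ILC3 (median 52.9), against 0 to 13.5 CPM in ILC2 (median 0.933) (log2 fold change 6.46 ± 0.71, adjusted p = 5.44e-05; log2 ratio of mean CPM 4.36). Its highest ILC2 value lay in the ZT16 library, which also had the highest mast cell and basophil sum of the ILC2 libraries. Batf3 and Zfp366 are factors best known from dendritic cells. Batf3 spanned 27.9 to 53.95 CPM in ILC3 (median 42.5), against 0.275 to 5.31 CPM in ILC2 (median 1.95) (log2 fold change 4.49 ± 0.54, adjusted p = 7.10e-05), and Zfp366 had medians of 21.8 CPM in ILC3 and 0.893 CPM in ILC2 (5.80 ± 0.66; log2 ratio of mean CPM 4.17). Batf3 and Gata2 were themselves on the dendritic cell and mast cell lists, whose sums were higher in ILC3.

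In the other direction the largest folds were those of Rxrg, Bhlhe41, Sox8, Bhlha15 and Pparg. Rxrg (Entrez 20183, chr1:167598362-167639623), a retinoid X receptor that pairs with other nuclear receptors, spanned 0 to 1.43 CPM in ILC3 (median 0.418), against 31.9 to 59.3 CPM in ILC2 (median 50.8) (log2 fold change -6.90 ± 0.46, adjusted p = 1.07e-06). Pparg (Entrez 19016, chr6:115360879-115490404), a lipid-sensing nuclear receptor and partner of retinoid X receptors, spanned 0.558 to 2.74 CPM in ILC3 (median 1.76), against 36.2 to 56.96 CPM in ILC2 (median 45.1) (log2 fold change -4.56 ± 0.26, adjusted p = 3.98e-07). The values of both genes were tight within ILC2, and every ILC3 library was far below them. Bhlhe41, a repressor of the basic helix-loop-helix family, had medians of 0.444 CPM in ILC3 and 24.3 CPM in ILC2 (-5.10 ± 0.58), and Sox8 had medians of 0.785 CPM in ILC3 and 23.97 CPM in ILC2 (adjusted p = 2.96e-05). Bhlha15, a factor of secretory cells, spanned 0 to 6.67 CPM in ILC3 (median 1.83), against 27.7 to 119 CPM in ILC2 (median 58.2) (log2 fold change -4.78 ± 0.55, adjusted p = 4.60e-05). It was highest in ILC2 ZT23 replicate 1 and lowest among ILC2 libraries in ILC2 ZT23 replicate 2, the same libraries that held the highest and lowest plasma and B cell sums of ILC2.

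**Figure D4:**
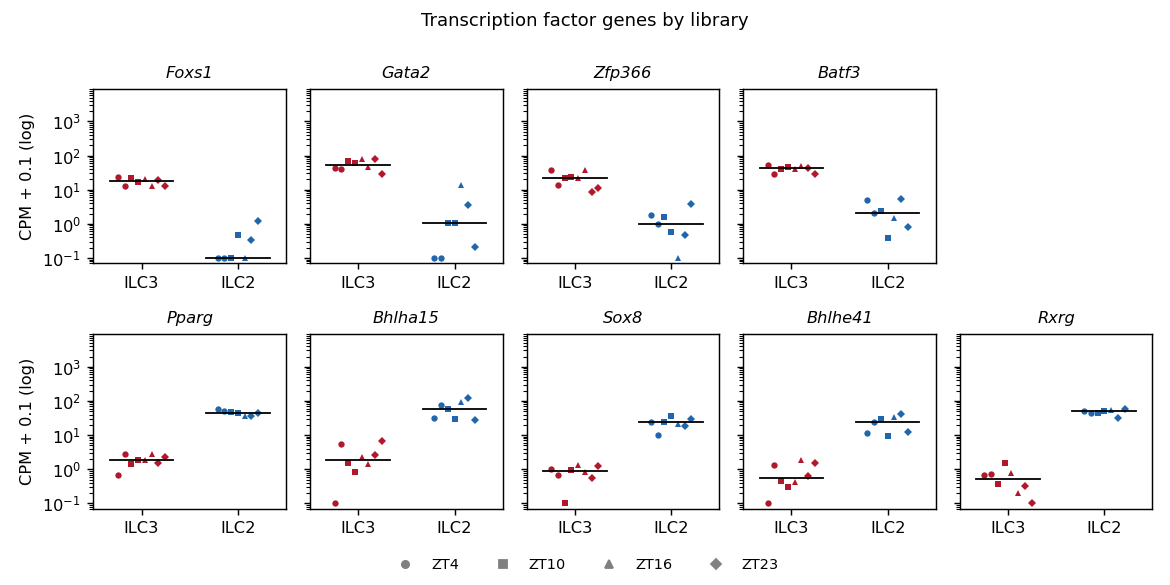
CPM plus 0.1 (log scale) of 4 transcription factor genes with large fold changes above ILC2 in ILC3 (upper row) and the 5 with the largest below it (lower row), one point per library, ILC3 left and ILC2 right, line at the median and marker shape by time. No gene shown overlaps between cell types, which the criteria for naming required. Pparg sits at 0.558 to 2.74 CPM in ILC3 and 36.2 to 56.96 CPM in ILC2.

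Family counts here and below stand beside those of all genes, of which 15.1% were higher in ILC3 and 12% higher in ILC2. By family, nuclear receptors split both ways, with 9 of 41 tested higher in ILC3 and 6 higher in ILC2. Examples picked with their values in view were the clock repressor Nr1d1 (146 CPM in ILC3 and 27.4 CPM in ILC2, log2 2.62 ± 0.19) above ILC2, and the glucocorticoid receptor Nr3c1 (175 CPM in ILC3 and 636 CPM in ILC2, log2 -1.67 ± 0.17) below it. Of 66 basic helix-loop-helix and PAS factors, 9 were higher in ILC3 and 11 in ILC2, or 30.3% called, near the 27.1% of all genes. Epas1, the oxygen-sensitive HIF-2α, had medians of 148 CPM in ILC3 and 1361 CPM in ILC2 (log2 -2.85 ± 0.23). The Notch targets of that family went opposite ways, with Hes1 at medians of 43.7 CPM in ILC3 and 392 CPM in ILC2 (log2 -3.33 ± 0.18) and Heyl at 42.5 CPM in ILC3 and 2.31 CPM in ILC2 (log2 4.08 ± 0.52). Of 20 SOX, TCF, LEF and TOX factors, 6 were higher in ILC3 and 2 in ILC2, among them Tcf7, a factor of early lymphoid development, with medians of 414 CPM in ILC3 and 96.6 CPM in ILC2 (log2 2.03 ± 0.25). ETS factors had 6 and 5 of 24, with the myeloid factor Spi1 at medians of 217 CPM in ILC3 and 50.2 CPM in ILC2 (log2 2.21 ± 0.29) and Spib, known from plasmacytoid dendritic cells, at 12.8 CPM in ILC3 and 137 CPM in ILC2 (log2 -3.32 ± 0.27). Zinc fingers of the Zfp series were called less often than all genes (11.6% against 27.1%), with 26 of 352 higher in ILC3 and 15 higher in ILC2.

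Surface receptors were the class with the largest share called. The 5 largest folds above ILC2 were those of Gp2, Dscam, Klra5, Gpr141b and Cd209b, all with a median ILC2 level under 1 CPM. Gp2 (Entrez 67133, chr7:119442537-119459272), a receptor for bacterial pili, spanned 17.5 to 93.9 CPM in ILC3 (median 35.2), against 0 to 0.249 CPM in ILC2 (median 0), with 5998 counts against 3. The ratio of pooled counts, scaled by summed library sizes, was 1002, with a 95% counting interval of 342.6 to 4859. Dscam (Entrez 13508, chr16:96587452-97171113), a neuronal adhesion molecule, spanned 8.11 to 34.04 CPM in ILC3 (median 18.7), against 0 to 0.483 CPM in ILC2 (median 0), a ratio of 427.3 with an interval of 166.7 to 1569. Klra5, of the Ly49 family of natural killer receptors, had a median of 17.4 CPM in ILC3 and 8 counts over all ILC2 libraries, a ratio of 173.1 with an interval of 87.71 to 401.3. Cd209b, a lectin for microbial sugars known from macrophages, spanned 23.1 to 112 CPM in ILC3 (median 35.1), against 0 to 2.36 CPM in ILC2 (median 0.497) (log2 fold change 7.33 ± 0.46, adjusted p = 7.99e-07; log2 ratio of mean CPM 5.66). Its highest ILC3 value came from ILC3 ZT4 replicate 1, without which the fitted log2 fold change was 7.12. Gpr141b, an orphan receptor next to Gpr141, had medians of 25.01 CPM in ILC3 and 0 CPM in ILC2 (log2 fold change 8.51 ± 0.99, adjusted p = 8.56e-05; log2 ratio of mean CPM 6.30). Klra, Cd209 and Gpr141 genes have close relatives, between which the counting may have split reads.

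Below ILC2 the largest folds were those of Ly6a, Siglech, Ccr4, Il17rb and Tbxa2r. Ly6a (Entrez 110454, chr15:74994877-74998031), the stem cell antigen Sca-1, spanned 1.12 to 11.6 CPM in ILC3 (median 4.3), against 416 to 1071 CPM in ILC2 (median 629) (log2 fold change -7.18 ± 0.40, adjusted p = 3.20e-07). Siglech (Entrez 233274, chr7:55768154-55779448), a lectin that defines plasmacytoid dendritic cells and stood on that list, spanned 0.756 to 4.24 CPM in ILC3 (median 2.49), against 100.3 to 402 CPM in ILC2 (median 316) (log2 fold change -7.06 ± 0.41, adjusted p = 4.98e-07). Both were far above every ILC3 library in every ILC2 library. Ccr4 (Entrez 12773, chr9:114490316-114505476), a chemokine receptor of type 2 lymphocytes, spanned 1.44 to 7.42 CPM in ILC3 (median 3.45), against 187 to 502 CPM in ILC2 (median 292) (log2 fold change -6.57 ± 0.30, adjusted p = 9.65e-08). Il17rb (Entrez 50905, chr14:29996168-30008896), the receptor for the tuft cell cytokine interleukin-25, spanned 4.12 to 16.7 CPM in ILC3 (median 8.89), against 447 to 952 CPM in ILC2 (median 804) (log2 fold change -6.27 ± 0.28, adjusted p = 9.65e-08). Tbxa2r, the thromboxane receptor, had medians of 0.276 CPM in ILC3 and 23.5 CPM in ILC2 (log2 fold change -6.20 ± 0.53, adjusted p = 5.78e-06).

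Receptors for cytokines showed opposite members of the same small families. Of 56 interleukin, interferon and growth hormone family receptors tested (62 in the files), 17 were higher in ILC3 and 14 in ILC2. The examples that follow, in this class and the later ones, were chosen after their values were seen among genes past the strict criteria. In the interleukin-17 receptor family, Il17re (66.9 CPM in ILC3 and 4.64 CPM in ILC2, log2 4.23 ± 0.35) and its partner Il17rc (11.4 CPM in ILC3 and 4.76 CPM in ILC2, log2 1.96 ± 0.41) were higher in ILC3, opposite to Il17rb. In the interleukin-1 receptor family, Il1r1 (135 CPM in ILC3 and 7.23 CPM in ILC2, log2 4.99 ± 0.42), the decoy Il1r2 (152 CPM in ILC3 and 11.8 CPM in ILC2, log2 3.79 ± 0.58) and Il18r1 (96.8 CPM in ILC3 and 15.9 CPM in ILC2, log2 2.77 ± 0.42) were higher in ILC3, opposite to Il1rl1. Il9r, for a cytokine that sustains ILC2, had medians of 5.01 CPM in ILC3 and 155 CPM in ILC2 (log2 -4.80 ± 0.24). Both chains of the type I interferon receptor were lower in ILC3, Ifnar1 with a log2 fold change of -1.02 and Ifnar2 with -1.30.

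Homing receptors divided in the same manner, with 11 of 29 chemokine and sphingosine receptors higher in ILC3 and 9 in ILC2. Ccr6, whose ligand is made by epithelium over lymphoid follicles, spanned 57.6 to 131 CPM in ILC3 (median 104), against 0.5101 to 3.92 CPM in ILC2 (median 2.799) (log2 fold change 5.29 ± 0.26, adjusted p = 1.68e-07). Cxcr5, the receptor of the B cell follicle chemokine, spanned 75.3 to 192 CPM in ILC3 (median 134), against 1.09 to 10.1 CPM in ILC2 (median 3.897) (log2 fold change 4.64 ± 0.46, adjusted p = 1.65e-05). S1pr3 had medians of 20.1 CPM in ILC3 and 0.966 CPM in ILC2 (log2 6.15 ± 0.72; log2 ratio of mean CPM 4.58), and Ccr7, the lymph node receptor, had 194 CPM in ILC3 and 70.9 CPM in ILC2 (log2 1.68 ± 0.30). On the ILC2 side stood Ccr8 (6.16 CPM in ILC3 and 244 CPM in ILC2, log2 -5.53 ± 0.23), Ccr10 (5.51 CPM in ILC3 and 249 CPM in ILC2, log2 -5.52 ± 0.39) and, with a smaller fold, the gut homing receptor Ccr9 (148 CPM in ILC3 and 514 CPM in ILC2, log2 -1.90 ± 0.22). Ccr9 is also on the plasmacytoid dendritic cell list. Itgae, the integrin chain that binds E-cadherin on epithelium, had medians of 807 CPM in ILC3 and 43.8 CPM in ILC2 (log2 3.90 ± 0.31).

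Receptors for lipids, nerves and metabolites gave a further division. Among 47 tested receptors for nucleotides, lipids and metabolites, 12 were higher in ILC3 and 9 in ILC2. Ptgir, the prostacyclin receptor, had medians of 1.18 CPM in ILC3 and 74.2 CPM in ILC2 (adjusted p = 9.65e-08), whereas Ptger2, a prostaglandin E2 receptor, had 35.4 CPM in ILC3 and 6.69 CPM in ILC2 (log2 2.10 ± 0.24). Cysltr1, a cysteinyl leukotriene receptor, had 40.6 CPM in ILC3 and 117 CPM in ILC2 (log2 -1.61 ± 0.16), and Ffar2, which senses short-chain fatty acids, had 131 CPM in ILC3 and 41.3 CPM in ILC2 (log2 1.68 ± 0.20). Among 51 receptors for neuropeptides, amines and hormones, 15 were higher in ILC3 and 9 in ILC2. Nmur1, which lets ILC2 sense neuromedin U from enteric neurons, spanned 3.31 to 15.8 CPM in ILC3 (median 7.13), against 95.5 to 249 CPM in ILC2 (median 145) (log2 fold change -4.53 ± 0.30, adjusted p = 1.05e-06). The adrenergic receptor Adra2a (31.1 CPM in ILC3 and 4.995 CPM in ILC2, log2 3.14 ± 0.34) and the serotonin receptor Htr7 (12.1 CPM in ILC3 and 0.231 CPM in ILC2, log2 ratio of mean CPM 4.27, adjusted p = 8.46e-04) were higher in ILC3. Of growth factor receptors, Kit, the stem cell factor receptor of ILC3 and mast cells, had medians of 815 CPM in ILC3 and 169.5 CPM in ILC2 (log2 2.22 ± 0.24), and Ret, the receptor for glial-derived neurotrophic factors, had 261 CPM in ILC3 and 727 CPM in ILC2 (log2 -1.35 ± 0.25).

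Of 105 lectin-like, Fc and paired receptors tested, 49 were higher in ILC3 and 11 in ILC2, or 46.7% and 10.5%, next to 15.1% and 12% of all genes. Klrb1b (712 CPM in ILC3 and 92.4 CPM in ILC2, log2 2.96 ± 0.30) and Fcer1g, a signalling chain (393 CPM in ILC3 and 82.2 CPM in ILC2, log2 2.27 ± 0.21), were examples, and Klrg1, an inhibitory receptor of mature ILC2, was an example of the reverse (9.44 CPM in ILC3 and 444 CPM in ILC2, log2 -5.81 ± 0.27). Several members, such as Fcer1a and Ncr1, also stood on the mast cell or cytotoxic lists, whose sums were higher in ILC3. Costimulatory, inhibitory and SLAM receptors were nearly even, at 15 and 16 of 51. Cd28 (12.1 CPM in ILC3 and 261 CPM in ILC2, log2 -4.46 ± 0.20) and Icos (164 CPM in ILC3 and 491 CPM in ILC2, log2 -1.46 ± 0.26) were lower in ILC3, and Havcr2 (98.5 CPM in ILC3 and 13.4 CPM in ILC2, log2 3.16 ± 0.37) and Cd7 (1191 CPM in ILC3 and 111 CPM in ILC2, log2 3.33 ± 0.41) were higher. Of 24 TNF receptors, 6 were higher in ILC3 and 10 in ILC2 (25% and 41.7%). Those 10 included Tnfrsf17 and Tnfrsf13b, which are plasma cell receptors on the plasma and B cell list, and Tnfrsf18 (55.6 CPM in ILC3 and 187 CPM in ILC2, log2 -1.67 ± 0.21).

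Secreted proteins above ILC2 were led by Il22ra2, Mcpt8, Cma1, Adamts15 and Prss12. Il22ra2 (Entrez 237310, chr10:19622028-19634681), a secreted decoy receptor for interleukin-22, spanned 64.8 to 297 CPM in ILC3 (median 85.6), against 0 to 0.276 CPM in ILC2 (median 0), with 16481 counts against 6, a ratio of 1376 and an interval of 632.2 to 3751. Every ILC3 library thus had transcripts of both the cytokine and its antagonist, and the highest values of both were in ILC3 ZT4 replicate 1. Dendritic cells are a known source of Il22ra2, and the macrophage and dendritic cell sum was also highest in that library, at 5436 CPM. ILC3 ZT4 replicate 2, next in that sum at 3179 CPM, had the lowest Il22ra2 of the ILC3 libraries, 64.8 CPM. The source of these transcripts was not tested. Mcpt8 and Cma1 are proteases of basophils and mast cells. Mcpt8 spanned 11.2 to 45.3 CPM in ILC3 (median 20.2), against 0 to 0.111 CPM in ILC2 (median 0), with 2 counts in ILC2 and a ratio of 912.7 (interval 252.5 to 7539). Cma1 spanned 5.29 to 21.4 CPM in ILC3 (median 8.93) and had no count in ILC2, so that it was at least 261.7-fold higher, taking 3 counts over the ILC2 group as the floor. Adamts15, a matrix protease, had medians of 21.04 CPM in ILC3 and 0.221 CPM in ILC2 (log2 fold change 6.92 ± 0.65, adjusted p = 1.09e-05; log2 ratio of mean CPM 5.40), and Prss12, a protease known from neurons, had 17.6 CPM in ILC3 and 0.231 CPM in ILC2 (log2 fold change 6.87 ± 0.52, adjusted p = 4.65e-06; log2 ratio of mean CPM 6.12).

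Cd40lg, Prg2, Il5, Rnase2b and Slpi led the other direction. Cd40lg (Entrez 21947, chrX:57212143-57224042), a helper signal to B cells, spanned 0 to 1.22 CPM in ILC3 (median 0.191), against 4.35 to 77.4 CPM in ILC2 (median 27.3) (log2 fold change -6.59 ± 0.60, adjusted p = 8.65e-06). Prg2 (Entrez 19074, chr2:84980461-84983632), the eosinophil major basic protein, spanned 0.277 to 5.61 CPM in ILC3 (median 1.82), against 30.4 to 471 CPM in ILC2 (median 180.2) (log2 fold change -6.50 ± 0.55, adjusted p = 5.76e-06), and without ILC2 ZT23 replicate 1, its highest library, the log2 fold change was -5.76. It was on the eosinophil list, of whose other 9 genes Epx and Ear6 were not tested, 5 were called higher in ILC3 and 0 higher in ILC2. Slpi, a protease inhibitor of mucosal surfaces, spanned 0.396 to 13.2 CPM in ILC3 (median 4.06), against 52.7 to 652 CPM in ILC2 (median 219) (log2 fold change -5.93 ± 0.51, adjusted p = 6.34e-06). Rnase2b, an eosinophil-type ribonuclease with close relatives, had medians of 0.138 CPM in ILC3 and 16.9 CPM in ILC2 (-6.32 ± 0.70). Among the 32 named genes higher in ILC2, 8 were highest of the ILC2 libraries in ZT23 replicate 1 and lowest in ZT23 replicate 2, as the plasma and B cell sum was. These were Prg2, Slpi, Bhlha15, Ly6a, Tbxa2r, Cacna1h, Fut1 and Fads3. Another 12 of the 32 were lowest of the ILC2 libraries in ZT23 replicate 1, among them Gata3, Il1rl1, Il5, Ccr4, Il17rb and Cd40lg. Slc1a4, Bhlhe41 and B3gnt9 were highest in ZT23 replicate 1 and lowest of the ILC2 libraries in ZT10 replicate 2. The part of plasma cells in all these genes was not tested. Each of the 8 kept its direction when either ZT23 library was left out, which their choice for large folds made likely.

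**Figure D5:**
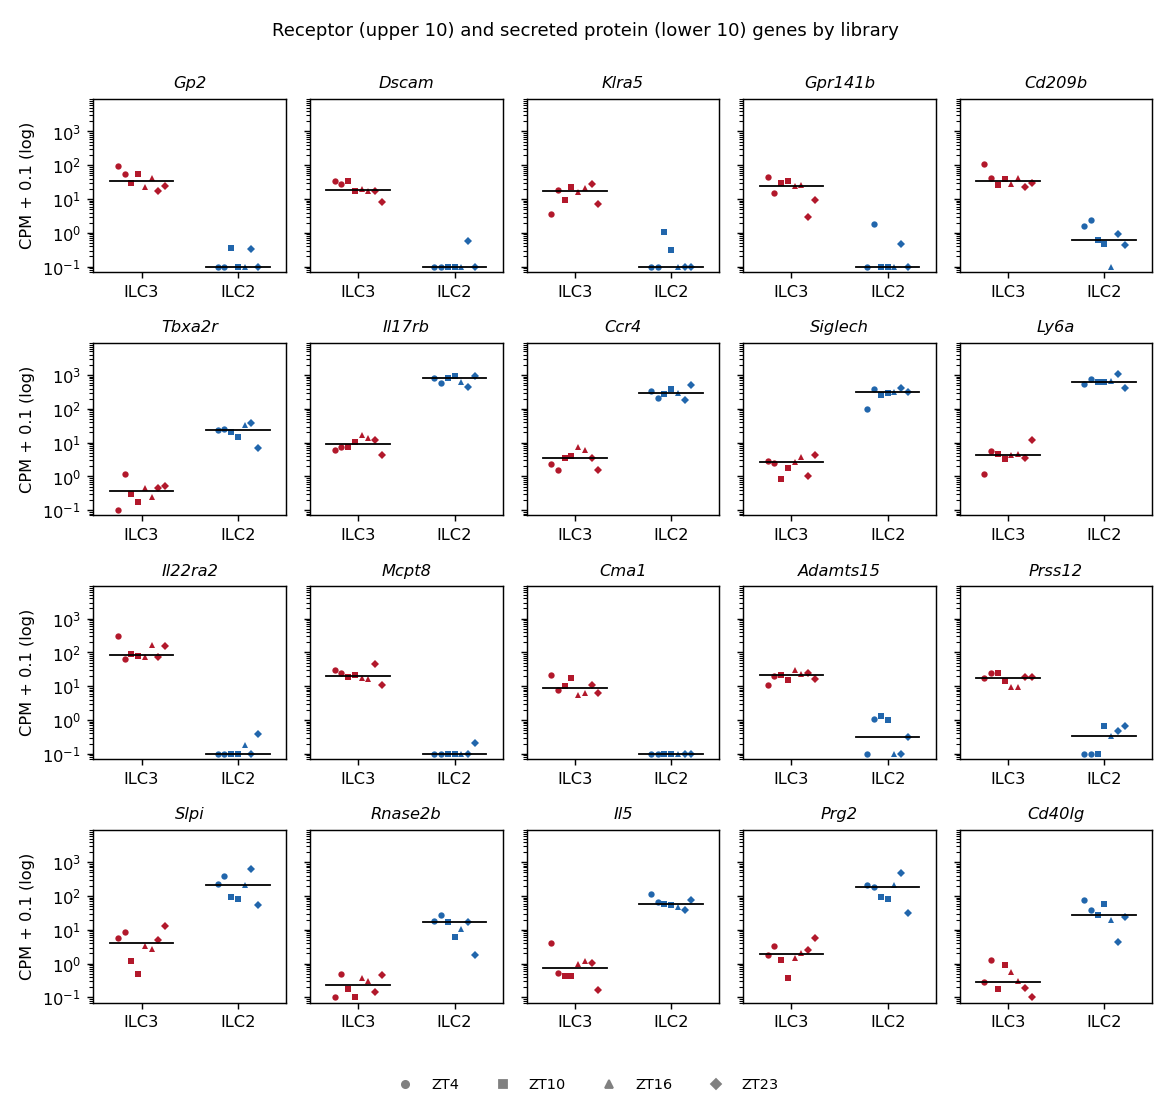
CPM plus 0.1 (log scale) of the 10 named receptor genes (upper 2 rows) and 10 named secreted protein genes (lower 2 rows), one point per library, ILC3 left and ILC2 right, line at the median and marker shape by time. Points at the foot of a panel are libraries at or near 0 counts, as for all 7 ILC2 libraries of Cma1. No gene overlaps between cell types, which the criteria for naming required.

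Cytokine and growth factor genes gave each cell type its own set. Of 42 interleukins and colony-stimulating factors tested (69 in the files), 7 were higher in ILC3 and 13 in ILC2. Besides Il5, the type 2 cytokines Il4 (1.06 CPM in ILC3 and 37.5 CPM in ILC2, log2 -5.16 ± 0.46) and Il13 (2.25 CPM in ILC3 and 63.3 CPM in ILC2, log2 -5.15 ± 0.46) and the growth factor Csf2 (19.2 CPM in ILC3 and 149 CPM in ILC2, log2 -2.97 ± 0.20) were lower in ILC3. Il17f was higher in ILC3 (18.8 CPM in ILC3 and 3.897 CPM in ILC2, log2 2.94 ± 0.52), while its relative Il17a had medians of 5.84 CPM in ILC3 and 5.61 CPM in ILC2 and did not pass the test (log2 fold change -0.19 ± 0.43, adjusted p = 0.808). Of 30 chemokines, 8 were higher in ILC3 and 2 in ILC2. Cx3cl1, a membrane-bound chemokine for myeloid cells, had medians of 219.9 CPM in ILC3 and 17.3 CPM in ILC2 (log2 3.96 ± 0.26). Ccl22, a ligand of Ccr4, had 96.8 CPM in ILC3 and 9.83 CPM in ILC2 (log2 3.85 ± 0.41). Ccl17, another ligand of Ccr4, had 11.4 CPM in ILC3 and 1.43 CPM in ILC2 (log2 3.31 ± 0.88). Which cells of the ILC3 libraries held these transcripts was not tested. Ccl1, the ligand of Ccr8, was lower in ILC3 (0.781 CPM in ILC3 and 25.5 CPM in ILC2, log2 -5.30 ± 0.28). Among 96 growth and differentiation factors, 20 were higher in ILC3 and 14 in ILC2. The epidermal growth factor family had a member on each side, Hbegf with 84.8 CPM in ILC3 and 21.1 CPM in ILC2 (log2 2.10 ± 0.28) and Areg with 18.02 CPM in ILC3 and 165 CPM in ILC2 (log2 -2.79 ± 0.29). Vegfa, the vessel growth factor, had 189.5 CPM in ILC3 and 22.8 CPM in ILC2 (log2 3.15 ± 0.29), and Bmp7 had 5.67 CPM in ILC3 and 53.6 CPM in ILC2 (log2 -3.31 ± 0.32). Calca, which encodes the neuropeptide CGRP, had 1.02 CPM in ILC3 and 42.1 CPM in ILC2 (log2 -5.51 ± 0.42). Granule proteins and proteases had 51 of 126 tested higher in ILC3 and 18 in ILC2, and that family holds the mast cell proteases and granzymes of the lists above.

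Among channels, calcium channel genes of the low-voltage T type stood at both ends. Cacna1g (Entrez 12291, chr11:94408391-94474400) spanned 36.4 to 139.6 CPM in ILC3 (median 72.6), against 0 to 0.731 CPM in ILC2 (median 0.0553), with 12123 counts against 14, a ratio of 433.9 and an interval of 258.5 to 793.9. Its relative Cacna1h (Entrez 58226, chr17:25374285-25436334) spanned 0.716 to 7.35 CPM in ILC3 (median 2.27), against 35.5 to 245 CPM in ILC2 (median 157) (log2 fold change -5.76 ± 0.51, adjusted p = 7.29e-06). Each cell type thus had transcripts of one T-type pore gene at levels that no library of the other reached. The L-type Cacna1d (Entrez 12289, chr14:30039941-30491156) spanned 0.574 to 3.65 CPM in ILC3 (median 1.29), against 21.3 to 47.7 CPM in ILC2 (median 35.02) (log2 fold change -4.49 ± 0.26, adjusted p = 5.04e-07), and the R-type Cacna1e had medians of 1.33 CPM in ILC3 and 23.3 CPM in ILC2 (-4.03 ± 0.36), so that Cacna1g was the one voltage-gated calcium pore gene past the strict criteria in ILC3 and 3 were in ILC2. Of 40 calcium and sodium channel genes tested, 8 were higher in ILC3 and 12 in ILC2.

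Potassium channel genes were 13 higher in ILC3 and 8 higher in ILC2 of 52 tested. Kcnk1 (Entrez 16525, chr8:125993655-126030685), a background leak channel, spanned 144 to 256 CPM in ILC3 (median 192), against 6.28 to 19.1 CPM in ILC2 (median 9.69) (log2 fold change 4.28 ± 0.28, adjusted p = 1.05e-06). The voltage-gated Kcnc1 had medians of 20.6 CPM in ILC3 and 1.74 CPM in ILC2 (3.67 ± 0.68), and Kcnip3, a calcium-binding partner of voltage-gated channels, had 13.1 CPM in ILC3 and 1.7 CPM in ILC2 (2.98 ± 0.40). Kcnq5, of the slow voltage-gated type, spanned 0.374 to 1.75 CPM in ILC3 (median 1.45), against 21 to 46.7 CPM in ILC2 (median 31.8) (log2 fold change -4.77 ± 0.37, adjusted p = 3.11e-06). The calcium-activated Kcnn4, which sets the membrane potential of activated lymphocytes, had 29.7 CPM in ILC3 and 305 CPM in ILC2 (log2 -3.44 ± 0.33). Like the plasma and B cell sum, Kcnn4 was highest of the ILC2 libraries in ZT23 replicate 1 and lowest in ZT23 replicate 2. Catsperd, an accessory subunit of the sperm calcium channel, had 0.338 CPM in ILC3 and 12.2 CPM in ILC2 (-4.93 ± 0.62). The glycerol and water channel Aqp3 was higher in ILC3 (44.5 CPM in ILC3 and 9.01 CPM in ILC2, log2 2.52 ± 0.31).

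The 5 named transporters above ILC2 had log2 fold changes of 2.35 to 2.77. Slc6a20a, a proline carrier, spanned 5.57 to 18.8 CPM in ILC3 (median 10.2), against 0.329 to 3.09 CPM in ILC2 (median 1.38) (log2 fold change 2.77 ± 0.55, adjusted p = 0.0026), and Abca3, a lipid pump, spanned 66.99 to 132 CPM in ILC3 (median 102), against 9.52 to 24.1 CPM in ILC2 (median 18.1) (log2 fold change 2.42 ± 0.20, adjusted p = 4.74e-06). Slc25a24, a mitochondrial carrier of adenine nucleotides, had medians of 90.5 CPM in ILC3 and 16.4 CPM in ILC2 (2.44 ± 0.21), and Slc22a15 had 12.4 CPM in ILC3 and 2.54 CPM in ILC2 (2.37 ± 0.32). The magnesium carriers of the Slc41 family went opposite ways, with Slc41a3 spanning 37.8 to 74.99 CPM in ILC3 (median 59.2), against 7.604 to 16.3 CPM in ILC2 (median 12.1) (log2 fold change 2.35 ± 0.21, adjusted p = 7.70e-06) and Slc41a2 spanning 1.07 to 6.92 CPM in ILC3 (median 1.84), against 23.3 to 90.7 CPM in ILC2 (median 49.9) (log2 fold change -4.56 ± 0.35, adjusted p = 2.66e-06). Abcc8, the sulfonylurea receptor that regulates potassium channels, spanned 0 to 0.686 CPM in ILC3 (median 0.199), against 7.85 to 14.1 CPM in ILC2 (median 13.2) (log2 fold change -6.06 ± 0.59, adjusted p = 1.46e-05). Atp8a2, a lipid flippase, spanned 3.67 to 8.303 CPM in ILC3 (median 6.097), against 89.4 to 196 CPM in ILC2 (median 165) (log2 fold change -4.59 ± 0.21, adjusted p = 9.81e-08). Of 50 amino acid carriers tested, 5 were higher in ILC3 and 9 in ILC2, or 28% called, near the 27.1% of all genes. Examples lower in ILC3 were Slc7a8 (23.9 CPM in ILC3 and 261 CPM in ILC2, log2 -3.19 ± 0.25), Slc1a4 (2.22 CPM in ILC3 and 23.9 CPM in ILC2, log2 -3.26 ± 0.50) and Slc7a5 (70.7 CPM in ILC3 and 157 CPM in ILC2, log2 -1.26 ± 0.19). The monocarboxylate carrier Slc16a3 was higher in ILC3 (32.6 CPM in ILC3 and 14.2 CPM in ILC2, log2 1.16 ± 0.21).

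Metabolic enzymes, a class that here includes lipid-handling and signalling enzymes such as phosphodiesterases, had 5 leading genes above ILC2. Car2 (Entrez 12349, chr3:14886269-14900770), a carbonic anhydrase, spanned 248 to 473 CPM in ILC3 (median 429), against 10.2 to 38.97 CPM in ILC2 (median 17.5) (log2 fold change 4.49 ± 0.34, adjusted p = 2.59e-06). Upp1 (Entrez 22271, chr11:9118008-9136170), which splits uridine, spanned 37.1 to 75.4 CPM in ILC3 (median 54.6), against 0 to 2.61 CPM in ILC2 (median 1.45) (log2 fold change 5.16 ± 0.45, adjusted p = 7.01e-06). Both had every ILC3 library far above every ILC2 library. Ptges, the last enzyme of prostaglandin E2 synthesis, spanned 34.1 to 71.5 CPM in ILC3 (median 62.95), against 1.06 to 3.91 CPM in ILC2 (median 2.49) (log2 fold change 4.55 ± 0.31, adjusted p = 1.31e-06). Ddc, the decarboxylase that makes dopamine and serotonin, spanned 26.97 to 97.8 CPM in ILC3 (median 66.6), against 0 to 8.28 CPM in ILC2 (median 1.46) (log2 fold change 4.67 ± 0.65, adjusted p = 2.05e-04), and Msrb3, which repairs oxidised methionine, had medians of 21.8 CPM in ILC3 and 0.746 CPM in ILC2 (6.06 ± 0.74; log2 ratio of mean CPM 5.15).

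The 5 leading enzyme genes below ILC2 were glycan enzymes except Fads3, a fatty acid desaturase with medians of 2.14 CPM in ILC3 and 37.2 CPM in ILC2 (-4.11 ± 0.37). Hs3st1 (Entrez 15476, chr5:39613935-39645592), a heparan sulfate sulfotransferase, spanned 22.2 to 35.7 CPM in ILC3 (median 26.1), against 960.3 to 2226 CPM in ILC2 (median 1256) (log2 fold change -5.57 ± 0.22, adjusted p = 9.65e-08). Fut1, a fucosyltransferase, spanned 0 to 0.936 CPM in ILC3 (median 0.314), against 1.71 to 32.6 CPM in ILC2 (median 11.1) (log2 fold change -5.99 ± 0.73, adjusted p = 7.75e-05). B3gnt9 had medians of 0.835 CPM in ILC3 and 18.8 CPM in ILC2 (-4.56 ± 0.48), and St6galnac5, a sialyltransferase, had 0.616 CPM in ILC3 and 9.06 CPM in ILC2 (-4.40 ± 0.36). Of 139 glycan and sulfate enzymes tested (163 in the files), 29 were higher in ILC3 and 41 in ILC2, or 50.4% called, next to 27.1% of all genes. Sialyltransferases stood on both sides. St6gal1, which adds the terminal sialic acid of many receptors, had 91.9 CPM in ILC3 and 551 CPM in ILC2 (log2 -2.63 ± 0.27), and St3gal5, which starts ganglioside synthesis, had 37.9 CPM in ILC3 and 4.104 CPM in ILC2 (log2 3.16 ± 0.28). Sulf2, which removes sulfate from heparan sulfate, was higher in ILC3 (209.6 CPM in ILC3 and 19.7 CPM in ILC2, log2 3.26 ± 0.22), opposite to Hs3st1.

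In carbon metabolism, of 80 enzymes of glycolysis, gluconeogenesis and the pentose phosphate pathway, 20 were higher in ILC3 and 7 in ILC2 (33.8% called, beside 27.1% of all genes). Hk2, which commits glucose to the cell, spanned 197 to 861 CPM in ILC3 (median 382), against 58.7 to 127 CPM in ILC2 (median 85.8) (log2 fold change 2.21 ± 0.26, adjusted p = 5.68e-05), and Hk3, of the same family, had medians of 67.2 CPM in ILC3 and 3.98 CPM in ILC2 (log2 3.76 ± 0.41). Pfkfb3 (85.04 CPM in ILC3 and 42.1 CPM in ILC2, log2 1.05 ± 0.18) was also higher in ILC3, and Pck2, the mitochondrial phosphoenolpyruvate carboxykinase, was lower (32.2 CPM in ILC3 and 88.02 CPM in ILC2, log2 -1.40 ± 0.21). Of 34 enzymes of arginine, polyamines and proline, 9 were higher in ILC3 and 4 in ILC2 (38.2%). Odc1, the first step of polyamine synthesis, had 881 CPM in ILC3 and 376 CPM in ILC2 (log2 1.63 ± 0.29), and the polyamine-degrading Smox (99.5 CPM in ILC3 and 22.6 CPM in ILC2, log2 2.12 ± 0.19) and Sat1 (127 CPM in ILC3 and 60.6 CPM in ILC2, log2 1.22 ± 0.18) were higher too. The next synthetic step, Srm, was lower in ILC3 (29.3 CPM in ILC3 and 65.9 CPM in ILC2, log2 -1.34 ± 0.16), as was the proline enzyme Pycr1 (2.35 CPM in ILC3 and 42.5 CPM in ILC2, log2 -3.94 ± 0.45). Phgdh, the first step of serine synthesis, had 13.7 CPM in ILC3 and 59.5 CPM in ILC2 (log2 -2.23 ± 0.20). Srm, Pycr1 and Phgdh were highest of the ILC2 libraries in ZT23 replicate 1 and lowest in ZT23 replicate 2, as the plasma and B cell sum was. The part of plasma cells in these genes was not tested. Aldh1a2, which makes retinoic acid, had 29.1 CPM in ILC3 and 1.62 CPM in ILC2 (log2 3.95 ± 0.53). Of 50 sterol and isoprenoid genes, 9 were higher in ILC3 and 8 in ILC2, and of 35 genes of the citric acid cycle, ketones and acetate, 5 and 2. Fatty acid synthesis, oxidation and storage had 18 and 8 of 109.

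Some genes called in the same direction followed one another along a chromosome. Tested protein-coding genes were taken in chromosomal order, skipping all other genes, so neighbours need not be adjacent. In that order 93 runs of at least 3 neighbours were called higher in ILC3 and held 337 genes. These were 14.5% of all genes called higher in ILC3, whether protein-coding or not. The 47 runs higher in ILC2 held 168 genes, 9.14% of all genes called higher in ILC2. All genes were called at 15.1% and 12% in these directions, and how many runs those shares give without clustering was not tested. The longest in ILC3 was the mast cell protease and granzyme cluster of chr14:55941451-56262334, with 11 genes (Cma1, Cma2, Mcpt1, Mcpt2, Mcpt9, Mcpt4, Mcpt8, Ctsg, Gzme, Gzmc and Gzmb). Next came 7 Klra receptor genes on chr6:129898988-130337626, 7 genes around Cacna1g on chr11:94343295-94602139 (Abcc3, Cacna1g, Epn3, Mycbpap, Rsad1, Acsf2 and Chad), 6 Serpinb protease inhibitor genes on chr13:32842092-33094380 and 6 genes on chr15:103313895-103565081 (Zfp385a, Itga5, Nckap1l, Pde1b, Ppp1r1a and Glycam1). Chad, which encodes a matrix protein, had medians of 150 CPM in ILC3 and 2.49 CPM in ILC2 in the Cacna1g run.

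In ILC2 the longest run was the kallikrein cluster of chr7:43976061-44229622, with 8 genes (Klk1b9, Klk1b11, Klk1b21, Klk1b27, Klk1b24, Klk1b3, Klk1b5 and Klk1). The second was the type 2 cytokine locus on chr11:53519397-53778374, where Septin8, Kif3a, Il4, Il13, Rad50, Il5 and Irf1 followed one another. The cytokine genes of that locus had log2 fold changes of -5.16, -5.15 and -6.36, and the other genes had smaller ones, such as Rad50, a DNA repair gene, at -0.72 with medians of 20.3 CPM in ILC3 and 35.4 CPM in ILC2, and Kif3a at -0.98. A further 6 Ly6 genes on chr15:74955025-75135128 (Ly6e, Ly6i, Ly6a, Ly6c1, Ly6c2 and Ly6a2) and 6 genes on chr3:58674949-59318446 (Siah2, Med12l, Gpr171, P2ry14, P2ry13 and P2ry12) followed. Klk1 of the kallikrein run and Ly6c2 of the Ly6 run were also on the plasmacytoid dendritic cell list, whose sum was higher in ILC2. Runs of 5 lay on chr1:60471180-62642284 with the costimulatory genes Cd28, Ctla4 and Icos between Raph1 and Pard3b, on chr6:145858243-146599198 from Bhlhe41 to Fgfr1op2, and on chr9:114375131-114640220 around Ccr4. Protease, kallikrein, Klra, Serpinb and Ly6 genes are families of close copies, and the strand setting of the counting was not given in the sources used here, so reads of copies or of overlapping neighbours may have been shared.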

How the data were processed

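PolyA RNA of sorted ILC3 and ILC2 from the small intestine was sequenced after library preparation with a TruSeq kit, per the labels' protocols. The authors deposited raw read counts per Entrez gene, whole numbers without normalization, made with featureCounts on mm10 per the submitters' processing notes. Which aligner was used, and how strand and multiply mapped reads were handled, was not given in the sources used here. Names and positions came from the RefSeq table of GRCm38.p6, the same build, for 22718 of 22797 genes. 

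Genes were filtered with edgeR's filterByExpr (minimum count 10), counts were scaled with TMM factors, and edgeR 4.0.16 (R 4.3.3) fitted quasi-likelihood models of 8 group means over 15 libraries with 7 residual degrees of freedom. The contrast was the average ILC3 group minus the average ILC2 group over the 4 times, adjusted by Benjamini-Hochberg over 15339 genes with a threshold of 0.05. Alternatives used DESeq2 1.42.0 and limma 3.58.1 voom. Replicates differed by more than sampling noise, with a chi-square per degree of freedom of 23.3 to 243. Total counts per library were 4016298 to 24794403, and 95% intervals of count ratios are exact but speak of counting error alone, as no molecular identifiers were used. Counts were simulated for this contrast over 14836 genes, of which 100 were changed 2-fold and 100 were changed 4-fold. Of these 69% and 88% were called, and 24 unchanged genes were called besides. Far fewer genes were changed there than were called in the data, so these shares need not hold for the data.

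Classes were assigned from gene symbols to 5174 genes. Named genes were the 5 with the largest fold per class and direction among those past the strict criteria given in the report, and the 5 markers, 64 in all, plus the 10 transcription factors of highest median TPM per cell type and the longest runs of neighbours. The members and all lists were chosen with earlier results of these data known. Further genes were picked as examples with their values in view. Some genes that meet these rules are not reported here.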

Additional observations from a re-analysis of the deposited data

Results flagged for a closer look

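Single libraries lay far from the other libraries of their cell type, by Dixon's criterion, for some groups of named gene and cell type. Of 128 groups examined, 21 were flagged. The criterion's rate of about 1 in 20 groups by chance holds for normally distributed values. It was applied here to CPM without logs, and each group mixed times of day. A group with counts in a single library, such as Mcpt8 or Dscam in ILC2, is flagged at any level. The 21 therefore cannot be read against that rate.

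In ILC3 libraries, ZT4 replicate 1 was high for Il22 at 1583 CPM (next highest 862.7), for Il22ra2 at 296.5 CPM (next 164.4), for Cd209b at 112.4 CPM (next 42.84) and for Il5 at 4.093 CPM (next 1.131). ZT4 replicate 2 was high for Cacna1e at 3.13 CPM and for Tbxa2r at 1.043 CPM. ZT23 replicate 2, the library with the highest epithelial and plasma cell sums of ILC3, was high for Ly6a at 11.6 CPM and for Slc41a2 at 6.923 CPM. ZT16 replicate 2 was low for Slc25a24 at 65.36 CPM (next lowest 87.39).

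In ILC2 libraries, ZT23 replicate 1, the library with the highest plasma and B cell sum, was high for Prg2 at 470.9 CPM (next 211.9), for B3gnt9 at 40.92 CPM (next 20.75) and for Dscam at 0.4828 CPM (others 0). ZT23 replicate 2 was high for Kcnk1 at 19.06 CPM, Foxs1 at 1.105 CPM, Il22ra2 at 0.2763 CPM and Mcpt8 at 0.1105 CPM. ZT16 replicate 1, with the highest mast cell and basophil sum of ILC2, was high for Gata2 at 13.53 CPM (next 3.38). ZT10 replicate 2 was high for Car2 at 38.97 CPM (next 18.35) and ZT10 replicate 1 for Klra5 at 0.994 CPM. ZT4 replicate 2 was high for Gpr141b at 1.705 CPM and Cacna1g at 0.7309 CPM.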

How the results depend on the processing

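All 64 named genes kept their direction under each of the 24 alternatives run. Most had been chosen from these same libraries for large folds without overlap, so this outcome was nearly fixed by the choice. Genes called numbered 2376 higher in ILC3 and 1819 higher in ILC2 with DESeq2's size factors, 2308 and 1846 with plasma and B cell genes out of the scaling, 2393 and 1780 without the filter, 2781 and 2027 with DESeq2's Wald test, 2350 and 1934 with limma voom, 2525 and 2123 with cell type alone, and 2477 and 2031 with cell type plus time. Scaled by library size alone, transcription factors higher in ILC2 numbered 71, against 109, and the cause was not tested. With single libraries left out, 1722 to 2520 genes were higher in ILC3 and 1540 to 1933 higher in ILC2, and transcription factors ranged over 67 to 127 and 82 to 123; the cause was not tested. Deviations of same-numbered libraries correlated at over 0.1 in 6 of 21 pairs of groups (range -0.159 to 0.447), not in every pair, so the numbers were not taken to pair the samples. The replicate block over the 14 numbered libraries called 1968 and 1557 genes. The shallowest library had 4016298 counts, which limits values under 1 CPM to few counts.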

Other observations

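T cell genes did not move as one. Of 14 such genes tested, 4 were called for ILC3 and 7 for ILC2, and their sum spanned 436.8 to 2909 CPM in ILC3 (median 1762) against 1053 to 1631 CPM in ILC2 (median 1264). The antigen receptor signalling chains Cd3e, Cd3d and Cd3g were higher in ILC3, with medians of 301.9 CPM in ILC3 and 67.57 CPM in ILC2 for Cd3e and a log2 fold change of 2.04. Cd8a had medians of 601.1 CPM in ILC3 and 120 CPM in ILC2, whereas its partner chain Cd8b1 had 1.142 CPM in ILC3 and 104.9 CPM in ILC2 (log2 fold changes 2.22 and -6.09). Cd28, Cd5, Cd6 and Ubash3a were higher in ILC2. Cd4 had medians of 97.05 CPM in ILC3 and 111.2 CPM in ILC2 and was not called.

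Genes of further cell types were called to differing extents, beside 27.1% of all genes. Of 16 epithelial genes 1 was called, higher in ILC3, of 13 stromal and endothelial genes tested 3 were higher in ILC3 and 3 in ILC2, and of 4 neutrophil genes tested 2 were called, both higher in ILC3. Camp and Ngp were at 0 in both cell types, and neutrophil sums were 6.975 to 19.16 CPM in ILC3 and 1.921 to 14.28 CPM in ILC2. Promoter windows with CGGAAG, a sequence of ETS factors, made up 18.5% of windows of genes higher in ILC3, 24.7% of those of genes higher in ILC2 and 27.2% of all.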
